A study of Mus musculus with 3 samples.

Results

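G1-called microglia of mouse thalamus were compared between 2 libraries made after an injection of the cytokine IL-33, with and without floxed alleles of its receptor. The members were the cells with the deposited cell-cycle phase G1 and a deposited cluster other than number 4. This sets aside cluster 4 and all cells called S or G2M. Most of the cells set aside lay outside cluster 4 (817 cKO IL-33 and 881 WT IL-33 cells), and whether those were dividing was not tested. They numbered 3054 of the 7598 cells in the data. The cKO IL-33 library gave 1748 of its 2687 cells (65.1%) and the WT IL-33 library 1306 of its 2202 cells (59.3%). The same rule kept 1490 of 2709 cells (55.0%) of the WT vehicle library, which gives a reference level.

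All 3 groups carried Cx3cr1-creER in the heterozygous state, an inducible recombinase under the fractalkine receptor gene, which is active in microglia and other tissue macrophages. WT IL-33 mice had this allele and received IL-33 into the cerebral ventricles. The cKO IL-33 mice also had floxed ST2 on both chromosomes and received IL-33, and WT vehicle mice had the recombinase alone and received vehicle. CD45-positive cells were sorted 4 h after the injection and profiled with droplet capture and unique molecular identifiers (UMIs). How many animals were used, their age and how the recombinase was induced are not stated in these sources, and no vehicle-injected library with floxed alleles was analysed here. Each group is 1 library, so differences lack a replicate check, no test was made, and all 95% intervals cover counting error only.

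IL-33 is an alarmin of the IL-1 family that is held in the nucleus of its source cells and acts once released. Its receptor chain ST2, encoded by Il1rl1, pairs with the co-receptor IL-1RAcP and signals through MyD88 and IRAK kinases to NF-kB and MAP kinases. In the developing thalamus and spinal cord the cytokine comes mainly from astrocytes and acts on microglia. Activated macrophages are known to combine cytokine output with a switch in biosynthesis, in which ribosomes, lipids and amino acids are supplied at another rate.

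The G1-called cells of WT IL-33 and cKO IL-33 held 7163750 and 10998908 autosomal UMIs, with medians of 4071 and 5272.5 UMIs per cell over all genes. WT vehicle had 9046605 autosomal UMIs and a median of 5396 UMIs. Every G1-called cell had S and G2M scores below 0, so cell-cycle genes used for these scores describe the choice of cells. Of 8 microglial markers, 3 or more were detected in each of the 1306 WT IL-33 and 1748 cKO IL-33 cells. The 8 border-associated macrophage markers summed to 137.5 CPM in WT IL-33 (Lyve1 at 0) against 358 CPM in cKO IL-33, beside 218 CPM in WT vehicle, and their part in the results was not tested. Stab1 gave most of each sum, at 119, 269 and 149 CPM for the libraries in that order. The sums therefore rest mainly on that gene, but each of the 8 markers was higher in cKO IL-33 than in WT IL-33. Mrc1 was at 8.99, 44.6 and 48.7 CPM, Pf4 at 2.64, 15.4 and 9.89 CPM and Cd163 at 1.59, 9.62 and 1.85 CPM, in the same order. Neutrophil markers were at 0 in both IL-33 libraries. Deposited cluster 1 took 82.8% of the WT IL-33 cells, while 53.0% of the cKO IL-33 cells lay in cluster 0, 29.9% in cluster 2 and 12.6% in cluster 3. The sexes differed too: by the deposited call, which rests on Xist, cKO IL-33 was almost all female (1726 of 1748 cells) and WT IL-33 was mixed (670 female, 636 male). Of the 670, 196 also held Y-linked UMIs and had a median of 10838.5 UMIs per cell, which marks them as deeper than the 474 without (3948). Only autosomal genes were therefore compared, and each level is in CPM, the usual counts-per-million scale, relative to the autosomal UMIs summed over the G1-called cells of a library. Where 3 levels follow each other without names, their order is WT IL-33, cKO IL-33, WT vehicle. Of the 3054 cells, only 1 barcode occurred in both libraries.

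Il1rl1 (chromosome 1, 40429570 to 40465415, GRCm38) had 42 UMIs in WT IL-33 against 150 in cKO IL-33, beside 97 in WT vehicle, or 5.86, 13.6 and 10.7 CPM. Its level was 2.33-fold higher (1.64 to 3.36) in the library that carries the floxed alleles, with a log2 ratio of 1.09 that was 0.53 among cells with at most 5000 UMIs. Reads from the 3' end of a transcript need not cover the floxed exons, whose position is not stated here, so the label cannot be checked by these counts. Il33 had 0 UMIs in both IL-33 libraries and 2 in WT vehicle.

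At least 50 CPM in either IL-33 library was reached by 4242 genes, of which 489 (11.5%) were at least 2-fold lower in cKO IL-33 and 467 (11.0%) at least 2-fold higher. The interval of the ratio excluded 1 for all 489 and all 467. The 2 sides differed in reach: 80 genes were past 10-fold lower and 0 past 10-fold higher. The 489 lower genes took 15% of autosomal UMIs in WT IL-33 against 3.54% in cKO IL-33, beside 3.4% in WT vehicle. The 467 higher genes took 4%, 10.7% and 9.93%, so the cKO IL-33 and WT vehicle libraries gave similar shares to both sets. Scaling bears on this split. With UMIs per cell and no scaling to the library total, 368 genes were lower and 652 higher, so that the lower genes made up 36.1% of the genes past 2-fold in place of 51.2%, and the median of all genes moved by 0.202 on the log2 scale.

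**Figure D1:**
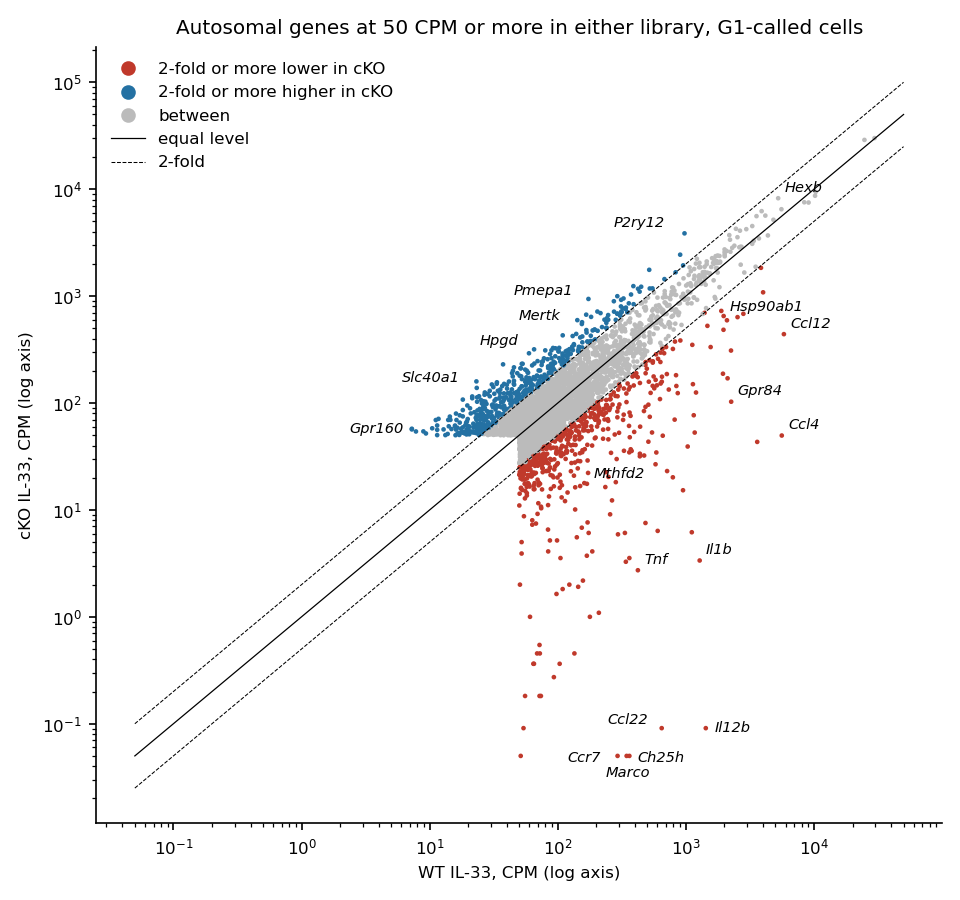
Each point is an autosomal gene at 50 CPM or more in either library, with its CPM in WT IL-33 (x axis, log) and cKO IL-33 (y axis, log) over G1-called cells; 0 is drawn at 0.05 CPM. Lower genes reach far below the 2-fold line, with Il12b and Ccl22 at 1 UMI and Ch25h, Marco and Ccr7 at 0 in cKO IL-33, and higher genes stay within 10-fold.

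The genes with the lowest ratios encode secreted signals, receptors and enzymes of inflamed macrophages. The promoters of the lowest pair that belong to a gene list are shown because these genes were abundant in WT IL-33 and had 1 UMI each in cKO IL-33, and because NF-kB lies downstream of ST2. Sequences are from the RefSeq table for GRCm38.p6, from 250 bases before the start of the gene to 50 after it, on the plus strand. Capitals mark matches to the NF-kB core, read here as GGG and CC with 5 bases of any kind between them, on either strand.

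Il12b, chr11:44399813-44400112: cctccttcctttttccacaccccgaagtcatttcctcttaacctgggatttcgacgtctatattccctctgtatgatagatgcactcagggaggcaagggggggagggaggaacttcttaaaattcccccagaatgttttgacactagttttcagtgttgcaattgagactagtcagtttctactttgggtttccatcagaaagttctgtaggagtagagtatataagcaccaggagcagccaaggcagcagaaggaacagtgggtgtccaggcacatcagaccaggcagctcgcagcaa

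Ccl22, chr8:94745434-94745733: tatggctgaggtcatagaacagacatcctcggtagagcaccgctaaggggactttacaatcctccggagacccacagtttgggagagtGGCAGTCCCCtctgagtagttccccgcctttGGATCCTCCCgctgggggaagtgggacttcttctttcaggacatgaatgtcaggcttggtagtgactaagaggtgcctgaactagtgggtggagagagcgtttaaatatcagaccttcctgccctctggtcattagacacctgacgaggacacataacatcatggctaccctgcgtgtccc

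The Il12b window held 0 matches and the Ccl22 window 2, both on the minus strand, at -162 and -131 from the gene start. The windows of Ch25h and Marco, next in order, held 1 and 3 (the last pair overlapping). Such matches are common: 13624 of 27025 promoters in the table (50.4%) had at least 1, as did 2332 of 3410 promoters of genes at 50 CPM or more (68.4%). Of the 15 genes with the lowest ratios 11 had a promoter in the table and 6 of these a match (54.5%), and of the 15 with the highest 8 had a promoter and 4 a match (50%). A match is a description of the letters only, and 0 matches to this 1 pattern do not show that a window lacks NF-kB sites.

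Il12b encodes the p40 chain shared by the cytokines IL-12 and IL-23. It had 10243 UMIs in WT IL-33 against 1 in cKO IL-33, beside 2 in WT vehicle, or 1429.8, 0.0909 and 0.221 CPM. The ratio of 15727 rests on 1 UMI in cKO IL-33 and has an interval of 2822 to 621230. In cells thinned to 3000 UMIs the share with an Il12b UMI was 40.6% in WT IL-33 (37.8 to 43.6%) and 0.0589% in cKO IL-33; unthinned shares were 43.0% and 0.0572%. No cell type that should lack the gene was present to give a background share. Ccl22, a chemokine for CCR4-bearing T cells, had 4638, 1 and 0 UMIs, and Ccr7, the receptor for lymph node homing, 2098, 0 and 0. With cKO IL-33 set to a floor of 3 counts, Ccr7 was at least 1074-fold lower, Ch25h (cholesterol 25-hydroxylase) at least 1328-fold lower and the scavenger receptor gene Marco at least 1264-fold lower.

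Among the lists, chemokines had the lowest median. A list member counts here where it is at 10 CPM or more in either library, and as higher or lower past 1.5-fold. Over all 8657 genes at that level, 1678 (19.4%) were lower and 1928 (22.3%) higher, with a median log2 ratio of 0.01. Of 15 measured chemokines 13 were lower and 0 higher, with a median of -4.87 (-4.89 with genes at 0 set to their bound). Ccl4, which recruits macrophages and lymphocytes, stood at 5602 CPM in WT IL-33 against 49.6 in cKO IL-33, beside 11.4 in WT vehicle. Ccl12, a monocyte attractant, went from 5820 to 441 CPM, with 396 in WT vehicle. Ccl6 was the only measured chemokine with a higher level in cKO IL-33, at 91.0 against 74.4 CPM. Of 16 cytokines and growth factors 9 were lower and 1 higher (median -1.30, and -0.47 with no CPM minimum, which falls inside 1.5-fold). Il1b stood at 1281, 3.36 and 0.774 CPM, 381-fold lower in cKO IL-33 (276 to 541). Tgfb1, whose product keeps microglia in their resting state, was at 243, 342 and 344 CPM, on the other side and within 1.5-fold.

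Among NF-kB subunits, inhibitors and adaptors, 20 of 25 were lower and 0 higher (median -2.0). The members that the pathway itself induces were far lower. Nfkbiz, an inducible nuclear co-regulator of IL-6 and IL-12 genes, was at 949.6 CPM in WT IL-33 against 15.3 in cKO IL-33, beside 15.1 in WT vehicle (62.2-fold lower, 53.3 to 72.9). Tnfaip3, the ubiquitin-editing brake A20, was at 237, 22.5 and 23.3 CPM, Nfkb2 at 137, 10.1 and 11.3 CPM and Nfkbia, the inhibitor IkB-alpha, at 838, 182 and 153 CPM. The subunit gene Rela was close to level, at 87.1, 66.4 and 61.8 CPM (1.31-fold lower, 1.18 to 1.46). Cyld, a deubiquitinase that restrains the pathway, was 1.40-fold higher (1.25 to 1.56).

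The list of IL-33 receptor and MyD88 pathway genes, which spans the receptor and kinases further down, did not lean to a side. Of its 17 measured members 5 were lower and 5 higher (median 0.04). The lower members included Irak3, an inhibitory kinase homologue, at 32.8, 1.45 and 0.332 CPM, and Mapkapk2, the kinase that p38 activates, at 301, 52.6 and 51.1 CPM. Myd88 itself was at 40.9, 35.7 and 28.9 CPM, with an interval of the ratio that includes 1.

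Surface proteins of activated antigen-presenting cells were mostly lower. Of 20 measured members 12 were lower and 3 higher (median -1.61). Cd40, the receptor for T cell help, had 668 UMIs in WT IL-33 against 3 in cKO IL-33, beside 1 in WT vehicle, 342-fold lower (116 to 1662). Cd86, a ligand of CD28, was at 496, 210 and 202 CPM, and Cd83 at 817, 69.9 and 67.9 CPM. The inhibitory receptor gene Havcr2 (TIM-3) went the other way, at 120 CPM in WT IL-33 against 296 in cKO IL-33, beside 230 in WT vehicle (2.46-fold higher, 2.29 to 2.66), as did Lair1 (2.15-fold, 2.06 to 2.24). Pattern recognition genes had 10 of 19 lower and 2 higher (median -0.75). Tlr2 was 22.1-fold lower (20.4 to 24.1) at 1172 against 52.9 CPM, and Tlr3, the sensor of double-stranded RNA, 2.46-fold higher (2.15 to 2.82).

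Genes that build ribosomes were lower almost throughout. Ribosome assembly starts in the nucleolus, where RNA polymerase I makes the rRNA precursor and small nucleolar particles modify and cut it. Of 39 measured genes of RNA polymerase I and nucleolar assembly 33 were lower in cKO IL-33 and 0 higher (median -1.26). Their summed level was 5281 CPM in WT IL-33 against 2430 in cKO IL-33, beside 2448 in WT vehicle. Nop56, a core protein of the particles that methylate rRNA, was at 327 CPM in WT IL-33 against 77.8 in cKO IL-33, beside 61.5 in WT vehicle, 4.20-fold lower (3.88 to 4.55). Its partner Nop58 was 3.30-fold lower (3.0 to 3.64), and Fbl, the methylase of the same particle, 1.37-fold lower (1.25 to 1.5), so the subunits of 1 complex differed in size of change. Rrs1, an assembly factor of the large subunit, was 4.35-fold lower (3.73 to 5.07), and nucleolin, Ncl, 2.35-fold lower (2.26 to 2.45). Of the polymerase itself, Polr1e was 5.47-fold lower (3.84 to 7.93), Polr1b 3.09-fold and the catalytic subunit gene Polr1a 1.57-fold (1.39 to 1.78). Ubtf, the factor that binds rRNA gene promoters, was the only measured member above level, at 86.8 against 101 CPM (1.16-fold higher, 1.05 to 1.28).

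Cytosolic ribosomal protein transcripts went with the other side: their median share of a cell's UMIs was 10.6% in WT IL-33 against 12.8% in cKO IL-33, beside 15% in WT vehicle. Rps29, among the 10 genes with the largest rise in CPM, was at 3901, 6231 and 5398 CPM. Translation factors were mostly lower. Of 33 measured, 19 were lower and 4 higher (median -0.64). The lower side held initiation factors such as Eif2s1, which encodes eIF2-alpha, at 197, 74.6 and 67.7 CPM (2.64-fold lower, 2.42 to 2.88) and the helicase gene Eif4a1 2.47-fold lower (2.37 to 2.58). The higher members were Eef2k, the kinase that shuts off elongation factor 2, at 26.9, 126 and 97.1 CPM (4.66-fold, 4.01 to 5.45), Pdcd4, an inhibitor of eIF4A (3.61-fold, 3.06 to 4.28), Eif4ebp2, a repressor of eIF4E (1.73-fold), and Eif3f (1.61-fold). The related repressor gene Eif4ebp1 had the lowest ratio of the list (3.11-fold lower, 2.74 to 3.52).

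The enzymes that load amino acids onto tRNA were lower in 15 of 20 cases and higher in 0 (median -0.90). Iars, for isoleucine, was at 129 CPM in WT IL-33 against 35.8 in cKO IL-33, beside 34.3 in WT vehicle (3.61-fold lower, 3.20 to 4.07). Tars and Cars, for threonine and cysteine, were 3.0-fold (2.66 to 3.38) and 2.74-fold lower (2.38 to 3.17). Wars and Qars, for tryptophan and glutamine, had intervals that include 1. Of 20 amino acid transporters and enzymes of serine and one-carbon synthesis 11 were lower and 1 higher (median -0.90). Mthfd2, a mitochondrial enzyme of folate metabolism, was at 169, 17.5 and 17.5 CPM (9.63-fold lower, 8.26 to 11.3). Slc7a1, the arginine transporter gene, was at 137, 16.3 and 11.6 CPM, and Slc7a5, which imports leucine, at 60.3, 16.5 and 14.4 CPM. Slc7a8, another neutral amino acid transporter gene, was 2.21-fold higher (2.04 to 2.39). Phgdh, the first enzyme of serine synthesis, differed little (1.09-fold lower, 1.01 to 1.19).

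The integrated stress response couples amino acid supply to translation through ATF4. Of 13 measured genes 8 were lower and 3 higher (median -0.72). Atf4 was at 206, 101 and 84.0 CPM (2.03-fold lower, 1.88 to 2.2) and Nupr1, a stress-induced chromatin protein gene, 4.39-fold lower (3.90 to 4.95). Ddit4, an inhibitor of mTORC1, was higher in cKO IL-33 at 247 CPM, against 118 in WT IL-33 and 113 in WT vehicle. Nucleotide synthesis had 9 of 18 lower and 3 higher (median -0.56), led by Ctps, CTP synthase (6.45-fold lower, 4.79 to 8.82), and Impdh2, the rate-limiting enzyme of GTP synthesis (3.16-fold lower, 2.76 to 3.62).

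**Figure D2:**
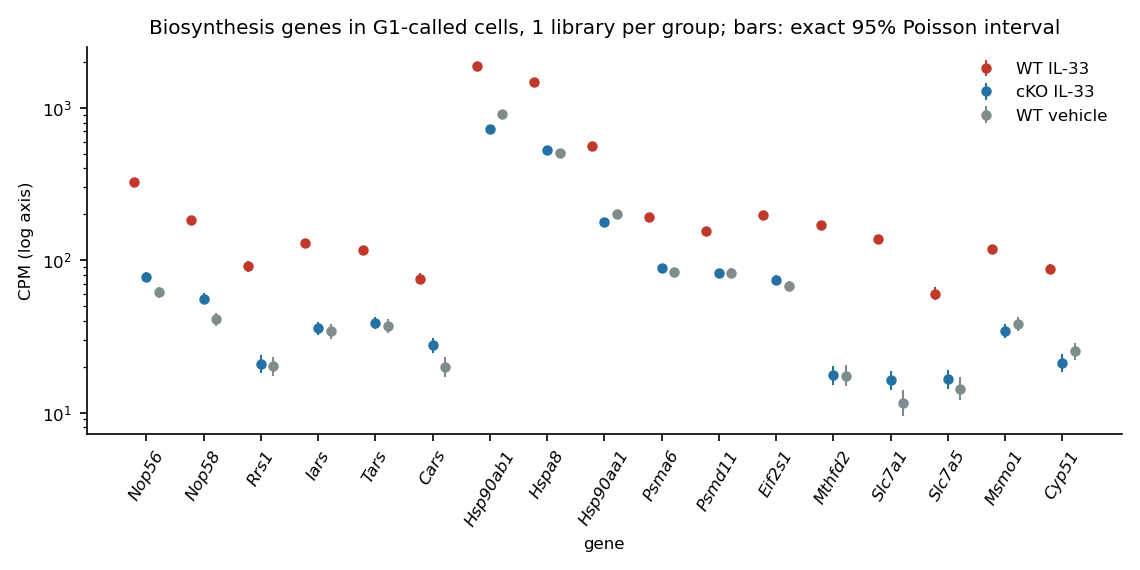
CPM (y axis, log) of 17 biosynthesis genes (x axis) in G1-called cells of the 3 libraries, with exact 95% Poisson intervals as bars. In each gene WT IL-33 (for example Nop56 at 327 CPM) stands above cKO IL-33 (77.8 CPM) and WT vehicle (61.5 CPM), which lie close together.

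Cytosolic folding and protein turnover genes lay on the same side. Of 22 cytosolic and mitochondrial chaperones 14 were lower and 0 higher (median -0.86), with a summed level of 6538 CPM in WT IL-33 against 3047 in cKO IL-33, beside 3269 in WT vehicle. Hspa8, the constitutive Hsp70, was at 1472, 527 and 509 CPM (2.79-fold lower, 2.71 to 2.89), and the Hsp90 genes Hsp90aa1 and Hsp90ab1 were 3.16-fold (2.99 to 3.34) and 2.60-fold lower (2.53 to 2.67). Hspe1, the mitochondrial co-chaperonin, was level at 213 against 209 CPM, although its partner Hspd1 was 2.54-fold lower (2.35 to 2.74). Of 29 proteasome and ubiquitin genes 14 were lower and 0 higher (median -0.52). Psma6, a core subunit, was at 193, 88.4 and 83.2 CPM. Folding in the endoplasmic reticulum stood apart from these: 2 of 25 genes were lower and 0 higher (median -0.25). Those 2 were Herpud1, of the degradation machinery, at 1135, 150 and 125 CPM (7.56-fold lower, 7.17 to 7.98), and the sensor gene Atf6 (2.05-fold lower). The chaperone Hspa5 was 1.37-fold lower (1.32 to 1.42), and Xbp1 had an interval that includes 1.

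Cholesterol synthesis and uptake had 15 of 20 measured genes lower and 0 higher (median -1.53), and its summed level was 893 CPM in WT IL-33 against 353 in cKO IL-33, beside 373 in WT vehicle. These genes are targets of SREBP2, which senses sterols in the endoplasmic reticulum. Sqle, squalene epoxidase, was at 31.8, 2.55 and 3.87 CPM (12.5-fold lower, 8.42 to 19.2). Cyp51, lanosterol demethylase, was at 87.8, 21.2 and 25.2 CPM (4.14-fold lower, 3.56 to 4.84), and Msmo1, a sterol oxidase, at 118, 34.4 and 38.1 CPM (3.42-fold lower, 3.03 to 3.87). Srebf2 was 2.56-fold lower (2.19 to 2.99), while for Srebf1 the interval includes 1. Genes of cholesterol export went the other way within a list that had 7 higher and 5 lower of 19 (median 0.33). Abcg1, a sterol exporter, was at 49.4, 120 and 135 CPM (2.43-fold higher, 2.16 to 2.74), Abca1 1.65-fold higher (1.56 to 1.74) and Apoe at 2458, 4262 and 6176 CPM. The log2 ratio of Apoe was 0.79, and 0.13 without cluster 3 and cells with 2 or more UMIs of other leukocyte markers. That alternative kept 519 of 1306 WT IL-33 and 354 of 1748 cKO IL-33 cells. Most cells it removed lay outside cluster 3, which held 2.83% of WT IL-33 and 12.6% of cKO IL-33 cells. The markers of that alternative included Stab1, Ighm and Cd79b, with 902, 1184 and 996 UMIs in WT IL-33 and 3162, 2186 and 657 in cKO IL-33. The B cell genes Igkc and Pax5 were at 0 in both. UMIs were not thinned for it, so deeper cells were removed more readily. The removed cells need not be other leukocytes, and which of them bear on the change was not tested. Ch25h, whose product suppresses SREBP2, was on the side of the synthesis genes, and Lpl, lipoprotein lipase, was 28.2-fold lower (23 to 34.8).

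**Figure D3:**
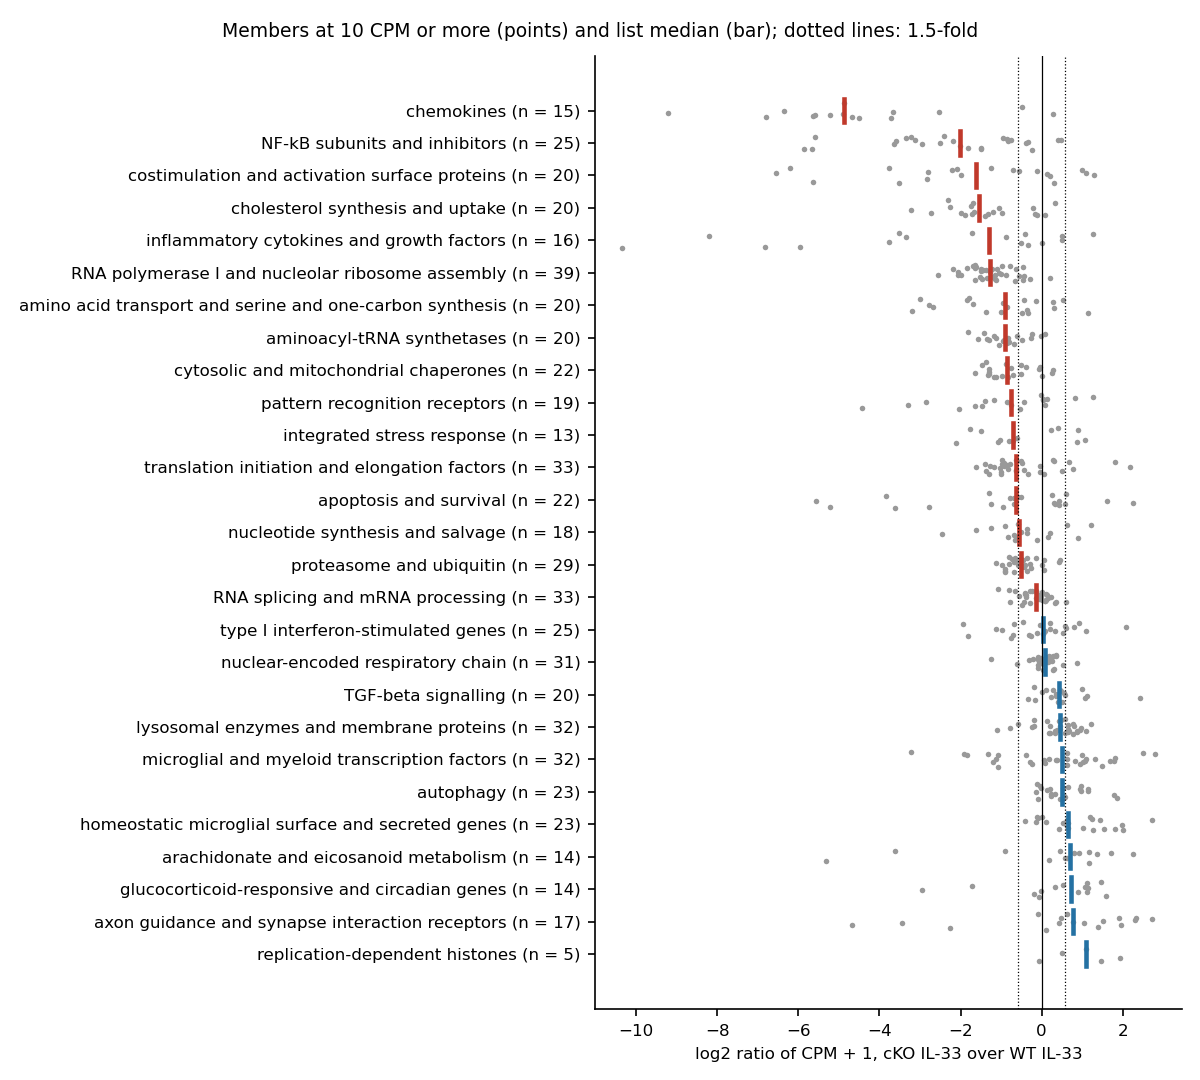
Log2 ratio of cKO IL-33 over WT IL-33 (x axis) for each measured member (grey points) of 27 gene lists (y axis), with the list median as a bar, red below 0 and blue above. Chemokines lie furthest left (median -4.87), ribosome assembly and chaperone members cluster on the left of 0, and the lists at the foot lie to the right.

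Of 22 measured genes of apoptosis and survival 11 were lower and 3 higher (median -0.63). The anti-apoptotic Bcl2a1 genes were among the lower ones, with Bcl2a1d at 334, 6.09 and 3.65 CPM, although near-identical copies can share its reads. Fas, the death receptor gene, was also lower, at 97.7, 1.64 and 1.22 CPM (59.7-fold, 37.5 to 101). The higher genes included the pro-apoptotic Bcl2l11, which encodes BIM, at 16.1, 79.6 and 72.0 CPM (4.96-fold, 4.08 to 6.08) and Bmf (1.53-fold).

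On the higher side, homeostatic microglial genes had 14 of 23 members higher and 0 lower (median 0.64). Slco2b1, an organic anion transporter gene, was at 167 CPM in WT IL-33 against 670 in cKO IL-33, beside 504 in WT vehicle (4.02-fold, 3.78 to 4.28). P2ry12, the ADP receptor that guides microglial processes, was 3.96-fold higher (3.86 to 4.06). Rtn4rl1, a Nogo receptor homologue, was at 23.2, 159 and 185 CPM (6.87-fold, 5.86 to 8.11). The list was not uniform: Cx3cr1 was at 3294, 3085 and 2833 CPM and the abundant Cst3 1.01-fold higher.

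Degradative pathways lay on the same side. Of 32 lysosomal genes 14 were higher and 3 lower (median 0.46), with a summed level of 31940 CPM in WT IL-33 against 42720 in cKO IL-33, beside 41280 in WT vehicle. The protease genes Lgmn and Ctsd were 1.71-fold (1.67 to 1.74) and 1.57-fold higher (1.55 to 1.60). Ctsc, Ctsl and Ctsz, cathepsins too, were the 3 lower members, with Ctsc at 635, 296 and 233 CPM. Of 23 autophagy genes 8 were higher and 0 lower (median 0.51). They held the initiating kinases, Ulk2 at 57.4, 200.4 and 184 CPM (3.49-fold, 3.14 to 3.89) and Ulk1 (4.09-fold, 2.91 to 5.89), with their partner Rb1cc1 (2.22-fold, 2.02 to 2.45), and Uvrag (2.24-fold, 1.99 to 2.53). Becn1 had an interval that includes 1, and the cargo receptor gene Sqstm1 was 1.18-fold higher (1.05 to 1.32). Among phagocytic receptors and ligands 11 of 28 were higher and 7 lower (median 0.25), with Mertk at 142, 596 and 467 CPM and its ligand gene Gas6 at 33.4, 151 and 210 CPM.

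Transcription factors of microglia were split, with 16 of 32 higher and 8 lower (median 0.49). Sall1, which maintains microglial identity, was at 193, 486 and 516 CPM (2.51-fold higher, 2.37 to 2.67), Mef2a 2.15-fold higher (2.08 to 2.23) and Etv1 5.93-fold higher (4.95 to 7.17). Cbfa2t3, a co-repressor, had 52 UMIs in WT IL-33 against 623 in cKO IL-33, beside 762 in WT vehicle (7.80-fold, 5.88 to 10.6). Spi1, which encodes the lineage factor PU.1, lay on the lower side at 822, 376 and 399 CPM (2.19-fold, 2.10 to 2.28), as did Runx1 (2.10-fold), Rbpj (3.81-fold) and Cebpb (2.13-fold). Genes of TGF-beta signalling had 4 of 20 higher and 0 lower (median 0.43), a share near that of all genes (22.3%). Pmepa1, an inhibitor of the pathway, was at 174, 941 and 895 CPM, and Skil, another inhibitor, had the lowest ratio of the list at 408, 320 and 277 CPM (1.27-fold lower, 1.21 to 1.34).

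Of 14 measured genes of arachidonate and eicosanoid metabolism, 9 were higher and 3 lower (median 0.71). Ptgs1, the constitutive cyclooxygenase, was at 274, 895 and 832 CPM (3.27-fold, 3.11 to 3.43), Hpgds, which makes prostaglandin D2, 2.57-fold higher (2.45 to 2.69) and Hpgd, which inactivates prostaglandins, at 65.3, 318 and 299.8 CPM (4.86-fold, 4.42 to 5.37). Ltc4s, the leukotriene C4 synthase gene, was 2.26-fold higher (2.18 to 2.34). Ptges, the inducible prostaglandin E2 synthase, had 305 UMIs in WT IL-33 against 1 in cKO IL-33, beside 1 in WT vehicle, and the prostaglandin E2 receptor gene Ptger4 was also lower, at 48.0, 3.0 and 1.11 CPM.

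Genes of axon guidance and of contact with neurons had 10 of 17 measured members higher and 3 lower (median 0.78). The lower members included the chemokine gene Cxcl16, at 1033, 39.2 and 38.7 CPM, and the semaphorin gene Sema4a (13.4-fold lower, 9.72 to 18.8). The neuropilins, co-receptors of semaphorins and VEGF, lay on opposite sides, Nrp1 at 34.1, 130 and 150 CPM (3.82-fold higher) and Nrp2 at 370, 75.8 and 57.9 CPM (4.88-fold lower).

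G1 regulators can be read in these cells without S and G2M genes. Of 23 measured 10 were higher and 7 lower (median 0.45). The D-type cyclins differed in direction: Ccnd2 had 199 UMIs in WT IL-33 against 1 in cKO IL-33, beside 2 in WT vehicle, Ccnd3 was at 63.1, 225 and 108 CPM (3.56-fold higher, 3.22 to 3.95) and Ccnd1 at 101, 189 and 183 CPM (1.87-fold higher, 1.72 to 2.04). Of the inhibitors, Cdkn1a (p21) was 3.40-fold lower (3.04 to 3.81) and Cdkn1b (p27) 2.29-fold higher (2.0 to 2.62). Myc, which drives ribosome production, was at 88.9, 29.4 and 15.4 CPM (3.03-fold lower, 2.64 to 3.47). Among PI3K, AKT and mTOR genes 10 of 29 lay higher and 4 lower (median 0.44). The lipid phosphatase gene Inpp5d (SHIP1) was 2.29-fold higher (2.18 to 2.40) and the regulatory subunit gene Pik3r5 7.62-fold lower (6.81 to 8.53).

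Glucocorticoid-responsive and circadian genes had 7 of 14 higher and 2 lower (median 0.71, against 0.26 for WT vehicle over WT IL-33). Fkbp5, a glucocorticoid receptor co-chaperone, was at 172 CPM in WT IL-33 against 373 in cKO IL-33, beside 127 in WT vehicle, and Sgk1 at 170.0, 377 and 273 CPM. The cKO IL-33 and WT vehicle libraries otherwise lay close among genes at 50 CPM or more: 3673 genes reached this in either, of which 2 (0.0545%) were at least 2-fold lower in cKO IL-33 and 11 (0.299%) at least 2-fold higher. Outside transcripts known only by clone or model numbers and Hist1h1e, a linker histone gene that was lower, these were Klf4 (3.42-fold), Sult1a1 (3.01-fold), Fkbp5 (2.94-fold), Trpm2, Ddit4, Jade2, Ccnd3, Phlpp2 and C5ar1. Genes under 50 CPM in both were not counted, and some of them differed more. Over WT vehicle, Ccl4 was 4.36-fold higher in cKO IL-33 (3.53 to 5.44), Il1b 4.35-fold (1.91 to 11.6) and Gadd45b 13.4-fold (4.98 to 50.5). Lpl was lower, with a ratio of 0.481 (0.372 to 0.619). The chemokine list had a median log2 ratio of 0.45 over WT vehicle. Within WT IL-33, Fkbp5 was at 238 CPM in female-called and 105 CPM in male-called cells and Ddit4 at 196 and 54.5 CPM. Between female-called cells without Y-linked UMIs of both IL-33 libraries the log2 ratio of Ddit4 was 0.33 in place of 1.07, and the median of the glucocorticoid and circadian list was 0.55. WT vehicle was almost all male-called (1483 of 1490 cells). These 2 libraries differ in genotype, injection and sex at once.

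Several processes had about as many members on either side, or few on any. Of 31 nuclear-encoded respiratory chain genes 1 was higher and 2 lower (median 0.08), with Cox4i1 at 587, 619 and 749 CPM. Splicing factors had 1 of 33 higher and 4 lower (median -0.13). Type I interferon genes had 6 of 25 higher and 7 lower (median 0.04), from Ifit1 (4.25-fold lower, 3.27 to 5.58) to Ifi27l2a, at 23.5, 103 and 200.1 CPM. Glycolysis had 6 of 22 higher and 7 lower (median 0.07), with the regulator Pfkfb3 2.92-fold lower (2.70 to 3.17) and the fructose transporter gene Slc2a5 3.56-fold higher (3.23 to 3.94). Antigen presentation had 5 of 19 higher and 6 lower (median -0.07), with Cd74, the invariant chain, 7.31-fold lower (6.72 to 7.96) and H2-DMb1, of peptide loading, 3.90-fold higher (3.33 to 4.58). In all, 13 of 56 lists had a median past 1.5-fold on the lower side and 5 on the higher side, the last with replication-dependent histones among them (5 measured genes).

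Values with and without cluster 4 and the S- or G2M-called cells were set side by side. Over the same members, the median of ribosome assembly genes was -1.26 in G1-called cells, -1.22 in the S- or G2M-called cells outside cluster 4 (817 cKO IL-33 and 881 WT IL-33 cells) and -1.20 over all deposited cells. Cholesterol synthesis gave -1.53, -1.37 and -1.44, tRNA synthetases -0.90, -0.91 and -0.88, and homeostatic genes 0.64, 0.62 and 0.63. Myeloid transcription factors gave 0.49, 0.26 and 0.45, and the type I interferon and mRNA stability lists, near 0, changed sign between G1-called and all cells (0.04 and -0.02, -0.05 and 0.04). For the same 16 members, the G2M genes used for the phase calls had a median of -0.44 in G1-called cells. It was -0.45 in the S- or G2M-called cells outside cluster 4 and -0.03 over all deposited cells. Only the last set holds cluster 4, without which 2565 of 2687 cKO IL-33 and 2187 of 2202 WT IL-33 cells remain. The part of cluster 4 in this difference was not tested. Hmgb2, a chromatin protein gene of dividing cells, had a log2 ratio of 0.37 over all cells and -0.20 in G1-called cells. Of the 10 genes with the most different ratios, 8 are not known as markers of S or G2M phase. Among them Lpl went from -4.21 over all cells to -4.67 in G1-called cells, and Vcam1, an adhesion molecule gene, from -4.04 to -4.44. Gadd45b, a stress gene that the list of G1 regulators holds, went from -5.79 to -5.42.

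Within a library the lists varied from cell to cell. In cells thinned to 3000 UMIs (179 WT IL-33 and 50 cKO IL-33 cells were shallower and left out), the ribosome assembly list had a median of 14 UMIs in WT IL-33 (10th to 90th percentile 7 to 24) and 7 in cKO IL-33 (3 to 11). WT vehicle cells had a median of 7 (4 to 11). Chemokines had a median of 41 UMIs in WT IL-33 (8 to 133.4) and 1 in cKO IL-33 (0 to 5). The lysosomal list had medians of 89 and 118 UMIs, with the 10th to 90th percentiles 65 to 116 and 95 to 146, so the cells of the libraries overlapped. In WT IL-33 the ribosome assembly list summed to 5532 CPM in the 1081 cells of cluster 1 and to 3635 CPM in the 225 cells of the other clusters, against 2427 CPM in the 1727 cKO IL-33 cells outside cluster 1. Clusters were formed on these genes, so this is a description. Of cKO IL-33, 21 cells lay in cluster 1, and their chemokine sum was 6894 CPM against 829.6 CPM in the others.

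**Figure D4:**
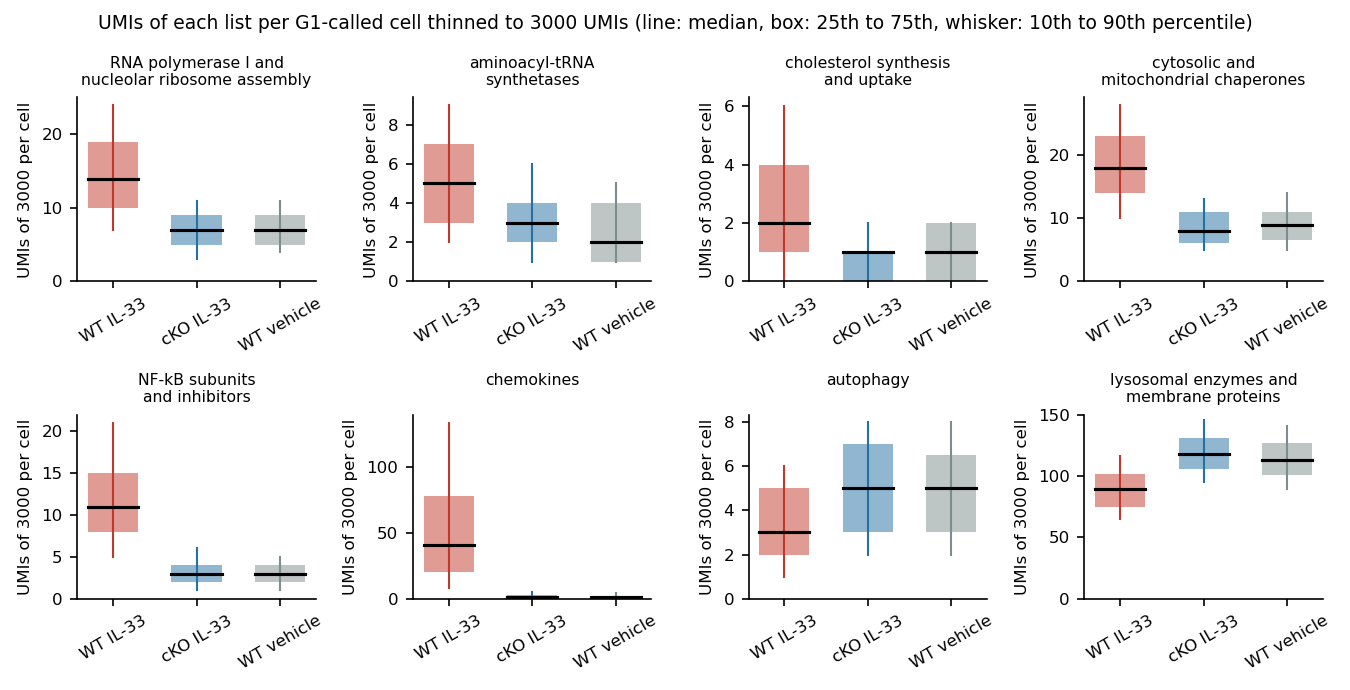
UMIs of 8 gene lists per G1-called cell after thinning to 3000 UMIs (y axes) in the 3 libraries (x axes), with the median as a line, the 25th to 75th percentile as a box and the 10th to 90th as a whisker. The ribosome assembly medians are 14, 7 and 7 UMIs and the chemokine medians 41, 1 and 1, from left to right.

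Sex moved with the groups, and its part was not tested beyond matched subsets. Against WT IL-33 cells called female without Y-linked UMIs and against those called male, taken separately, 425 of the 489 lower and 338 of the 467 higher genes were past 2-fold both times. Between female-called cells without Y-linked UMIs of both libraries (1725 and 474 cells), 421 genes were lower and 343 higher. Within WT IL-33 the level of inflammatory genes differed by call. Chemokines summed to 13500 CPM in the 474 female-called and 26950 CPM in the 636 male-called cells, and Il12b was at 666 and 2130 CPM. Biosynthesis lists differed less, with ribosome assembly at 4849 and 5831 CPM and tRNA synthetases at 1881 and 1918 CPM, each above the 2430 and 1056 CPM of cKO IL-33. The female-called cells had 74.1% in cluster 1 and the male-called 86.2%, with medians of 3948 and 3719 UMIs. A male call means only that no Xist UMI was seen, and 61.6% of those cells had a Y-linked UMI.

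**Figure D5:**
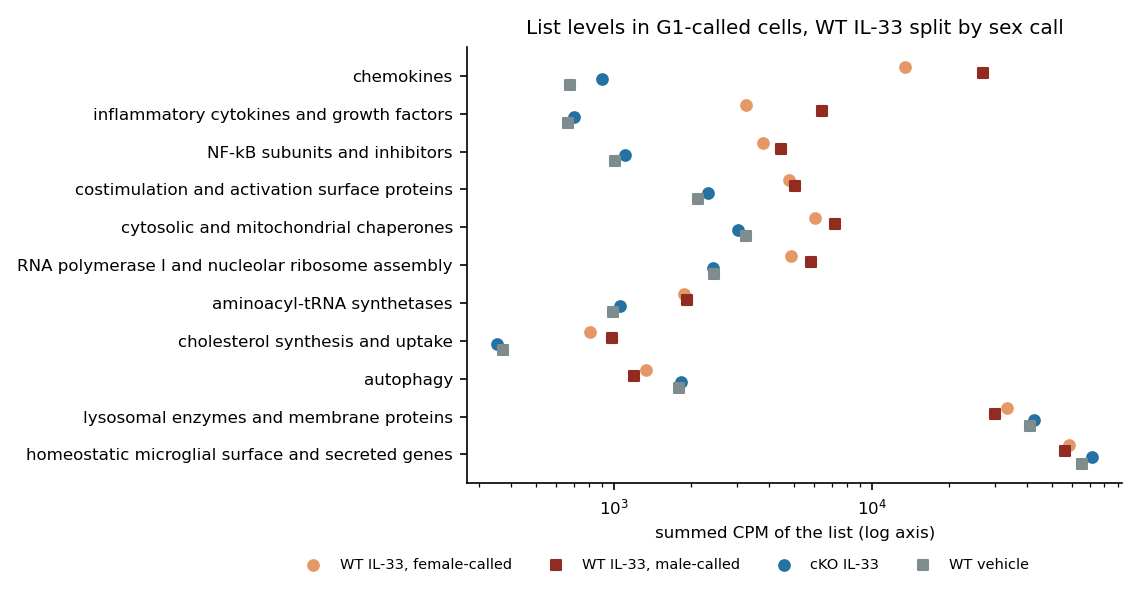
Summed CPM (x axis, log) of 11 gene lists (y axis) in G1-called WT IL-33 cells called female without Y-linked UMIs or called male, and in cKO IL-33 and WT vehicle. For chemokines the WT IL-33 points are at 13500 and 26950 CPM and cKO IL-33 at 898.5 CPM; for ribosome assembly they are at 4849, 5831 and 2430 CPM.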

How the data were processed

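Single-cell RNA was captured with 10x Genomics chemistry from CD45-positive thalamic cells, per the labels' protocols. Raw UMI counts of 20586 genes were deposited. Per the file headers, the cell table deposited with them holds each cell's library, sex call, cluster, phase, S and G2M score, and the mitochondrial and ribosomal percent of its UMIs. Cell Ranger 5.0, Seurat 4.0.1 and GRCm38 are named in the submitters' processing notes without roles. The authors' filter on cells and treatment of doublets are not stated here, and no doublet caller was run. An alternative set aside cells in which Xist and Y-linked UMIs occurred together.

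UMIs of the G1-called cells outside cluster 4 were summed per library over 19778 autosomal genes (GENCODE and RefSeq positions on GRCm38, matched by symbol; 166 symbols had none) and scaled to CPM. Other chromosomes held 5.32% of WT IL-33 and 6.32% of cKO IL-33 UMIs. Ratios have exact conditional binomial (Clopper-Pearson) intervals, CPM exact Poisson intervals and shares exact binomial intervals, all at 95%. Log2 ratios used a pseudocount of 1 CPM, which understates the change of low genes, and folds used none. A library at 0 was set to 3 counts for a lower bound. Thinning drew 3000 UMIs per cell. The genes named by rule were the 15 lowest and 15 highest ratios, the 10 largest falls and rises in CPM, the 10 most changed from all cells, up to 3 members per list with the member furthest on the other side, and Il1rl1 and Il33. These were genes at 50 CPM or more whose interval excludes 1, apart from Il1rl1 and Il33. Other genes, which are list members or differ 2-fold between cKO IL-33 and WT vehicle, were chosen after their values were seen. Some genes that the rule names are not reported here. The cells, lists and comparisons were chosen with earlier results of these data known. Steps were tested on simulated sums. Tools were Python 3.11.15, numpy 2.4.6, pandas 2.3.3 and scipy 1.17.1.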

Additional observations from a re-analysis of the deposited data

How the results depend on the processing

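With 1 library per group, counting intervals do not cover the spread between animals, and shallow cells limit genes under about 10 CPM. No paired analysis was possible because each group has 1 library. Among 16 alternatives, only the lower CPM minimum moved the counts past 1.5 times, and it raised the number of genes counted from 4242 to 8657. At 10 CPM, 886 of the 8657 genes were at least 2-fold lower and 985 higher, shares close to those at 50 CPM. Across the other alternatives there were 368 to 549 lower and 343 to 652 higher genes. The lowest and highest of these came from unscaled UMIs per cell, male-called WT IL-33 cells, female-called cells and unscaled UMIs per cell, in that order. Setting aside cells in which Xist and Y-linked UMIs occurred together left 489 lower and 491 higher. Without cluster 3 and cells with 2 or more UMIs of other leukocyte markers, 519 WT IL-33 and 354 cKO IL-33 cells remained. Of their genes 536 were lower and 569 higher. The alternative without cells holding both Xist and Y-linked UMIs and the unscaled form were chosen after seeing the data. All 18 lists with a median past 1.5-fold kept their sign in all 16, and 13 to 18 stayed past it, with 13 where lists had no CPM minimum. The list of apoptosis and survival genes (median -0.63) fell inside 1.5-fold most often, with a range of -0.73 to -0.44. None of the 179 named genes with a log2 ratio of 1 or more in size changed sign in any alternative. These lists and genes were picked for ratios far from 0 in the same libraries that each alternative reuses. A change of sign was therefore unlikely from the start. Lists near 0, such as type I interferon genes (-0.17 to 0.23), did change sign, and the cause was not tested.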
